A study of Mus musculus with 1989 samples.

Results

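The mitochondrial ribosomal protein genes were followed across the stages of thymocyte development in 1 scRNA-seq library of mouse thymus. They are the genes whose symbols start with Mrpl or Mrps, and the rule used no measured value. Of the 8846 genes in the table, 77 were members, 48 with an Mrpl and 29 with an Mrps symbol. The cells came from the thymus of male C57BL/6 mice aged 7 weeks, with no treatment named and no animal named for a cell, and 1993 cells were in the table. A second assay, scATAC-seq of single thymocytes from mice of the same strain, sex and age, gave accessibility in cells sorted as DN (CD4- CD8-), DP (CD4+ CD8+), CD4 or CD8. Since there was 1 library, no test between stages was possible. Intervals are 95% intervals that cover counting error only.

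Mitochondria carry a ribosome of their own. It translates the few proteins encoded by the mitochondrial genome, which are subunits of the respiratory chain and of ATP synthase, while its own proteins are encoded in the nucleus and imported. Mrpl genes encode proteins of its large subunit and Mrps genes those of its small subunit. Some symbols depart from this: the proteins of Mrps18a and Mrps30 sit in the large subunit, that of Mrpl58 (also called Ict1) derives from an enzyme that releases chains from stalled ribosomes, and that of Mrps36 belongs to the 2-oxoglutarate dehydrogenase complex. In the thymus, DN progenitors pass through the immature single positive (ISP) stage and divide as DP blasts (DPbla). They then rearrange the TCRα locus as DPre cells, are selected as DPsel cells and mature into CD4sp or CD8sp cells.

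The cells fell into 17 clusters, which were named from marker genes. Immature classes were DN-like (78 cells), ISP-like (163) and DPbla-like (339). Of the later ones, 496 cells were DPre-like and 334 DPsel-like, with 147 CD8sp-like and 218 CD4sp-like cells, besides 31 cells like nonconventional lymphocytes (NCL-like) and 36 like antigen-presenting cells (APC-like). One dividing cluster of 151 cells (7.58% of the library), led by Hmgb2, Pclaf, Dut and Pcna, scored almost equally as ISP and as DPbla and was left unnamed. The values in the table are log2 values after quantile normalization. Such scaling leaves the order of genes within a cell as it was. The different values that a cell held were therefore numbered upward from 1, and each number, called a step, stood in for a count. Of the members' values above 0, 62.4% were at step 1 and 91.2% at step 3 or lower. Total steps per cell are a measure of depth. They had a median of 2558 and reached 22539, and the median was 10082 in ISP-like cells against 1998.5 in DPre-like cells. Each cell was therefore thinned at random to 1300 steps, and levels are mean steps per thinned cell. In a 3′ assay a molecule is tagged at 1 end, so levels were not divided by gene length.

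Promoters of 6 members are given first, since their motifs and paired starts are described with the results. They are the gene with the highest level (Mrpl52), 2 genes that start close to a neighbor on the opposite strand (Mrps11 and Mrps12), and 3 genes at least 1.5-fold higher in ISP-like than in DPre-like cells that carry 1 or more of the motifs (Mrps18b, Mrpl36 and Mrpl42). Each runs 5′ to 3′ from 250 bases before to 50 bases after the start in RefSeq (GRCm38.p6). Capitals mark the ETS motif CCGGAAG, the NRF1 motif GCATGCGC, the YY1 motif AAGATGGC or the E-box CACGTG on either strand.
Mrpl52, chr14:54426659-54426958, plus strand: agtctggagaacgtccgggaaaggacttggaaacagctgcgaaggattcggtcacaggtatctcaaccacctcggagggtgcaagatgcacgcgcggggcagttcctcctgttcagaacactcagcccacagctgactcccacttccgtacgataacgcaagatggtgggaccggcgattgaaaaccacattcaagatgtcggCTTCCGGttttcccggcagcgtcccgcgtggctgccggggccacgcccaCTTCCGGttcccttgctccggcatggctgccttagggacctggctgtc
Mrps11, chr7:78782881-78783180, plus strand: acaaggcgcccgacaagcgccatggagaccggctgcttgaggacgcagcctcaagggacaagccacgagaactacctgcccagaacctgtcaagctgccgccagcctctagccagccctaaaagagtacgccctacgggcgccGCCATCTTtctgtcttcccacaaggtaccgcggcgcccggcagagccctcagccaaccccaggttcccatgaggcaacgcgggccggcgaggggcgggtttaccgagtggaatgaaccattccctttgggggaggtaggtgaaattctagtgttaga
Mrps12, chr7:28741772-28742071, minus strand: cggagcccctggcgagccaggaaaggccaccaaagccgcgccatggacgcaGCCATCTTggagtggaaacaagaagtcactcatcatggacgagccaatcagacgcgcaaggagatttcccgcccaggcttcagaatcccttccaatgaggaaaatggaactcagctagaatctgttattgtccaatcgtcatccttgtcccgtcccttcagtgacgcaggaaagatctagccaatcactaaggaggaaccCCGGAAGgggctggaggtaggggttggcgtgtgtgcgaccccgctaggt
Mrps18b, chr17:35916391-35916690, minus strand: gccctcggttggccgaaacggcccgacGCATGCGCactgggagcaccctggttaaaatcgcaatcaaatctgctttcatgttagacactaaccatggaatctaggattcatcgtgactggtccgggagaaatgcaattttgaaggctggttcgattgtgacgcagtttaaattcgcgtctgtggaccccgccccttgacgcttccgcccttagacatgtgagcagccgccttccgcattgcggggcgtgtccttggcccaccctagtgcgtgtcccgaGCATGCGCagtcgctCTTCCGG
Mrpl36, chr13:73330759-73331058, plus strand: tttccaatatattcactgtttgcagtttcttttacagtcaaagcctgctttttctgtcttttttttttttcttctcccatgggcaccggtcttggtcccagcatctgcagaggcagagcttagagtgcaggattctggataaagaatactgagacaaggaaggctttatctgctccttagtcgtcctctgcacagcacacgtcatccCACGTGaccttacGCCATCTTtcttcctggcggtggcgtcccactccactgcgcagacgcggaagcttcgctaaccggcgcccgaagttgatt
Mrpl42, chr10:95501900-95502199, minus strand: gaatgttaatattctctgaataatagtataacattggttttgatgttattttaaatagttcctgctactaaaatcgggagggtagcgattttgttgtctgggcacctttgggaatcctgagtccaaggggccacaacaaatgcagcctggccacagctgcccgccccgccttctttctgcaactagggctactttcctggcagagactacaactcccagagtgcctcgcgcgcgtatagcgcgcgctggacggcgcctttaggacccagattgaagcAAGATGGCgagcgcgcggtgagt

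Before thinning, many more members were detected in the deep cells. On average 56.2 ± 11.0 of the 77 members were detected in an ISP-like cell (SD over cells), against 30.5 ± 9.68 in a DN-like, 36.9 ± 9.03 in a DPbla-like and 18.7 ± 6.71 in a DPre-like cell. With total steps set equal the difference was smaller, and ISP-like cells had the highest level, with an interval that overlapped that of no other class. The members summed to 20.8 steps per cell in ISP-like cells (interval 20.2 to 21.6). The level was 14.7 in DN-like cells (13.9 to 15.6), 14.4 in DPbla-like cells (14 to 14.8) and 13.9 in DPre-like cells (13.6 to 14.2). It was 13.4 in DPsel-like cells (13.0 to 13.8), 13.4 in CD4sp-like cells (12.9 to 13.9) and 13.8 in CD8sp-like cells (13.2 to 14.4). Neighbors in the order of levels below the ISP-like class had overlapping intervals, but those of DN-like and DPbla-like cells did not overlap that of DPsel-like cells, nor did that of DPbla-like cells overlap that of CD4sp-like cells. The 2 non-thymocyte classes lay in the same range, at 13.2 (11.9 to 14.5) in NCL-like and 13.4 (12.2 to 14.6) in APC-like cells. The unnamed dividing cluster lay between ISP-like cells and the rest, at 16.7 (16.0 to 17.4).

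**Figure D1:**
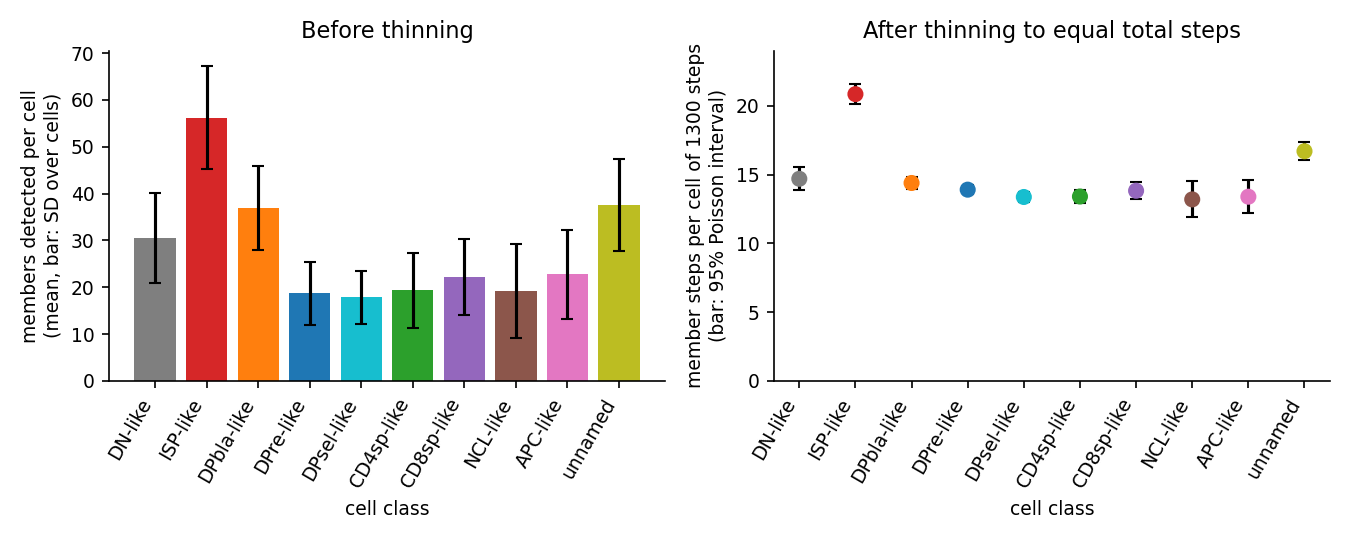
Left, mean number of the 77 members detected per cell in each class before thinning, with SDs over cells. Right, mean summed steps of the members per cell thinned to 1300 steps, with 95% Poisson intervals; ISP-like cells lie at 20.8 and the other named classes between 13.2 and 14.7.

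The spread between cells was wide beside these differences. The summed level of single ISP-like cells ran from 7 to 36 steps with a median of 21, and that of DPre-like cells from 5 to 25 with a median of 14, so single cells of the classes overlapped. The variance over the mean was 1.01 in DPre-like cells and 1.56 in ISP-like cells. Within the DPre-like clusters it was 0.878, 0.907 and 1.09. Since values below 1 occurred, a value near 1 is no sure mark of sampling alone for these steps. Depth was followed within classes. The shallower ISP-like cells (median total 8198.5 steps) had 20.4 member steps and the deeper ones (median 12795 steps) 21.3. Within each of the 2 ISP-like clusters the shallower and deeper cells differed more, with 19.9 and 22.1 in one and 19.5 and 21.8 in the other. Only 5 ISP-like cells had 2000 to 4000 total steps, and their level was 20.2, while 223 DPre-like cells of that depth had 13.7 and 39 DPbla-like cells 13.2. In DPbla-like cells the shallower and deeper cells had 13.5 and 15.2, in DPsel-like cells 12.7 and 14.1, in DPre-like cells 13.9 and 13.9 and over all cells 13.5 and 15.7. Thinning to 1300 steps thus left a rise with the original depth in most of these groups, and the Spearman correlation of the members' level with the median total over the 17 clusters, which share 1 library, was 0.512. The part of depth in the difference between classes was not tested further.

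Among clusters, the 2 that made up the ISP-like class had the highest levels. They had 21.0 (20.1 to 21.9) and 20.6 (19.5 to 21.8), with median totals of 8470 and 12795 steps. The first was led by H2afz, Hmgb2, Eif5a and Ptma, with Mki67 in 60.2% of 98 cells. The second was led by Hist1h2ap, Hmgb2, H2afz and Ube2c, with Mki67 in 98.5% of 65 cells. Hist1h2ap, Hmgb2 and Ube2c were also among the leading genes of DPbla-like clusters. The ISP marker scores of the ISP-like clusters were low, a mean z of 0.080 and 0.365, against DPbla scores of -0.24 and 0.289 in the same clusters. The 3 DPbla-like clusters had higher ISP scores, of 0.50, 0.663 and 0.429, and still higher DPbla scores, so that the name rests on the difference of the scores, not on a high ISP score. The 3 DPbla-like clusters lay at 15.3, 13.8 and 13.0, the first led by the S-phase genes Rrm2 and Hist1h2ap and the last by the mitotic genes Cenpf and Ccnb2. The 3 DPre-like clusters lay at 14.9, 14.5 and 12.6, and the highest of them was the one with Mki67 in the most cells. The ISP-like clusters also had the highest levels of Myc, a marker used to name them, at 0.337 and 0.200 steps per cell, against at most 0.0174 in the DPbla-like clusters. The DN-like cluster had a Myc level of 0.179, near that of the second ISP-like cluster, with a member level of 14.7, and the CD8sp-like cluster one of 0.102. Genes of the mitochondrial genome took 3.06% of steps in ISP-like cells, 3.18% in DPbla-like cells and 4.28% to 4.44% in the other thymocyte classes. Their part in the members' level was not tested. With and without these genes, the ratio of ISP-like to DPre-like cells was 1.5 and 1.5. Over DN-like cells it was 1.42 with and 1.35 without them, and over DPbla-like cells 1.45 and 1.41.

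**Figure D2:**
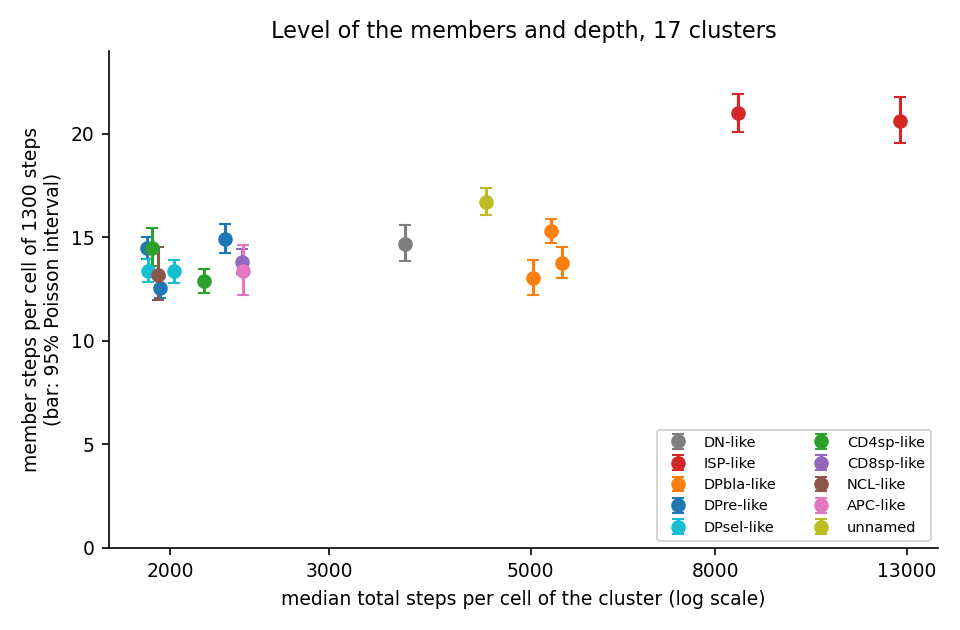
Summed member steps per thinned cell (vertical axis, 95% Poisson intervals) against the median total steps per cell before thinning (horizontal, log scale) for the 17 clusters, colored by class. The 2 ISP-like clusters lie above 20, and the DPbla-like clusters at median totals of 5026.5 to 5420 lie at 13.0 to 15.3.

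For single genes, a member entered a count where it reached a mean of at least 0.05 steps per thinned cell over all cells. This held for 71 of the 77 members and for 4666 of all genes. Mrps27, Mrps2, Mrps31, Mrps22, Mrpl47 and Mrpl37 did not reach it. Mrpl52, the highest member, ranked 375 of all 8846 genes. Its level over all cells was 0.572 steps (0.539 to 0.606), followed by Mrpl33 at 0.508, Mrps14 at 0.50, Mrpl58 at 0.479 and Mrpl30 at 0.461. Next were Mrps21 at 0.454, Mrpl18 at 0.419, Mrps33 at 0.405, Mrpl23 at 0.400 and Mrpl57 at 0.361.

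These abundant members did not share 1 profile. Mrpl52 had 0.417 steps in DPre-like cells and 0.327 in DPbla-like cells, against 0.772 in DPsel-like cells. It had 0.780 in CD4sp-like, 0.728 in CD8sp-like and 0.650 in ISP-like cells. Mrpl58, the release enzyme, ran the other way: 0.639 in DPre-like and 0.643 in DPbla-like cells, then 0.329 in DPsel-like cells and, in the mature cells, 0.362 (CD4sp-like) and 0.252 (CD8sp-like). The intervals of the DPre-like and DPsel-like levels did not overlap for either gene. Mrpl18, a protein that contacts the central protuberance of the large subunit, was highest in the dividing classes, with 0.693 steps in the ISP-like and 0.587 in the DPbla-like class, against 0.238 to 0.363 in the other 5 thymocyte classes. Mrpl33 and Mrpl23, the latter at the exit tunnel, were high in DN-like cells (0.795 and 0.679) and in ISP-like cells (0.748 and 0.607), and low in DPre-like cells (0.423 and 0.323).

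**Figure D3:**
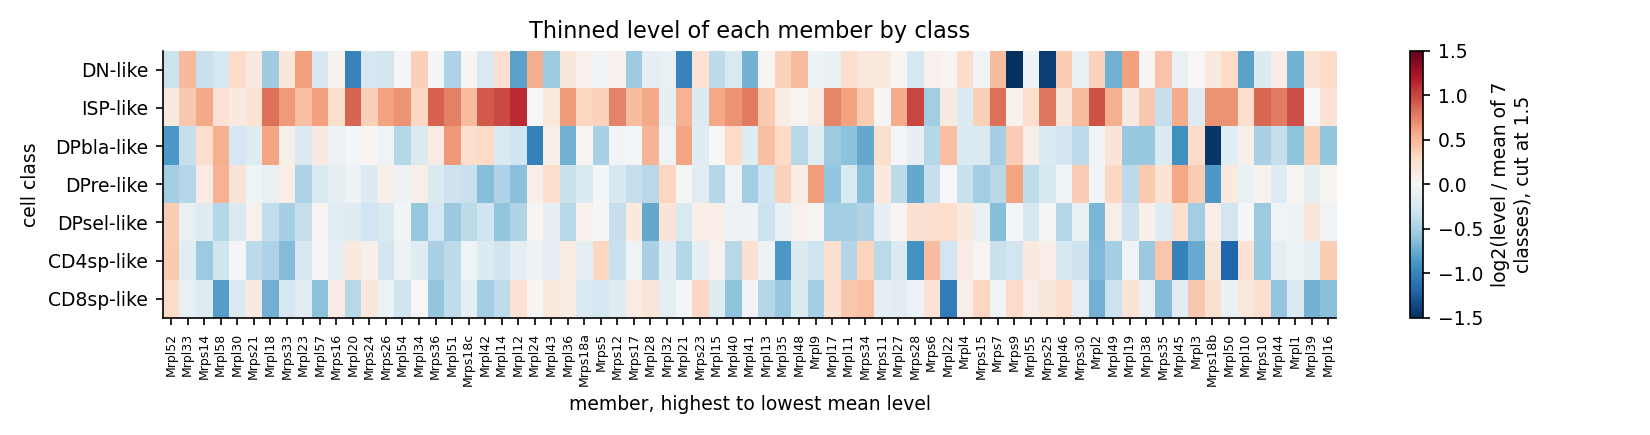
Level of the 71 members that passed the filter (columns, from the highest to the lowest mean) in the 7 thymocyte classes (rows), as log2 of the thinned level over the mean of the 7 classes. The ISP-like row is above the mean for most members, and 43 of 71 members were highest there.

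Of the 71 members, 43 (60.6%) had their highest level in ISP-like cells, beside 18.7% of all 4666 genes that passed. DN-like cells were highest for 11 members (15.5%, all genes 18.9%), DPbla-like cells for 6 (8.45%, all genes 12.6%) and DPre-like cells for 5 (7.04%, all genes 16.1%). DPsel-like cells were highest for 0 members (all genes 12.0%), and each mature class for 3 (4.23%, all genes 11.1% for CD4sp-like and 10.5% for CD8sp-like cells). Across the 17 clusters, the sum of the Mrpl genes and that of the Mrps genes had a Pearson correlation of 0.945 and a Spearman correlation of 0.806. The clusters come from 1 library. The 2 ISP-like clusters had the highest Mrpl and Mrps sums, and the correlations without them were not computed. The correlation of 1 member with the sum of the others was above 0 for 61 of 71 members, with a median of 0.45 and a range from -0.24 to 0.89. Mrps36 (0.89), Mrpl2 (0.88) and Mrps28 (0.86) followed the others most closely, and Mrpl39 (-0.24) and Mrps23 (-0.21) least.

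The comparison of ISP-like with DPre-like cells asks how ISP cells differ from the DP cells that follow the blast stage. One DPre-like cluster (121 of 496 cells) had Mki67 in 43.0% of cells. The members' summed level was 1.5-fold higher in ISP-like cells (1.44 to 1.56). At least 1.5-fold higher levels were seen for 35 of 71 members (49.3%), beside 21.6% of all genes that passed, and at least 1.5-fold lower levels for 0 of 71, beside 32.5% of all genes. With another random thinning 4 members were lower. At least 2-fold higher were 13 members (all genes 13.1%). The median ratio was 1.48 over the members and 0.899 over all genes.

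Mrps28, a small subunit protein, had the highest ratio, with 0.276 steps in ISP-like and 0.081 in DPre-like cells, a ratio of 3.42 (2.19 to 5.38). Mrpl12, which forms the stalk that recruits translation factors, had 0.534 and 0.159 steps, a ratio of 3.35 (2.44 to 4.6). Mrpl42 had 0.479 and 0.163 steps, a ratio of 2.93 (2.12 to 4.05). These 3 genes had similar ratios without thinning, 2.76, 3.35 and 2.93. Mrps18b (ratio 2.9, 1.52 to 5.54) and Mrpl14, on the face that meets the small subunit (ratio 2.74, 2.00 to 3.74), completed the highest 5. At the lower end were Mrpl3 (0.669, 0.314 to 1.3), Mrps35 (0.683), Mrps9 (0.686), Mrpl9 (0.702) and Mrpl32 (0.734, 0.463 to 1.12). The intervals of these 5 all included 1, and without thinning Mrpl3 was at 1.12 and Mrpl32 at 0.985.

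**Figure D4:**
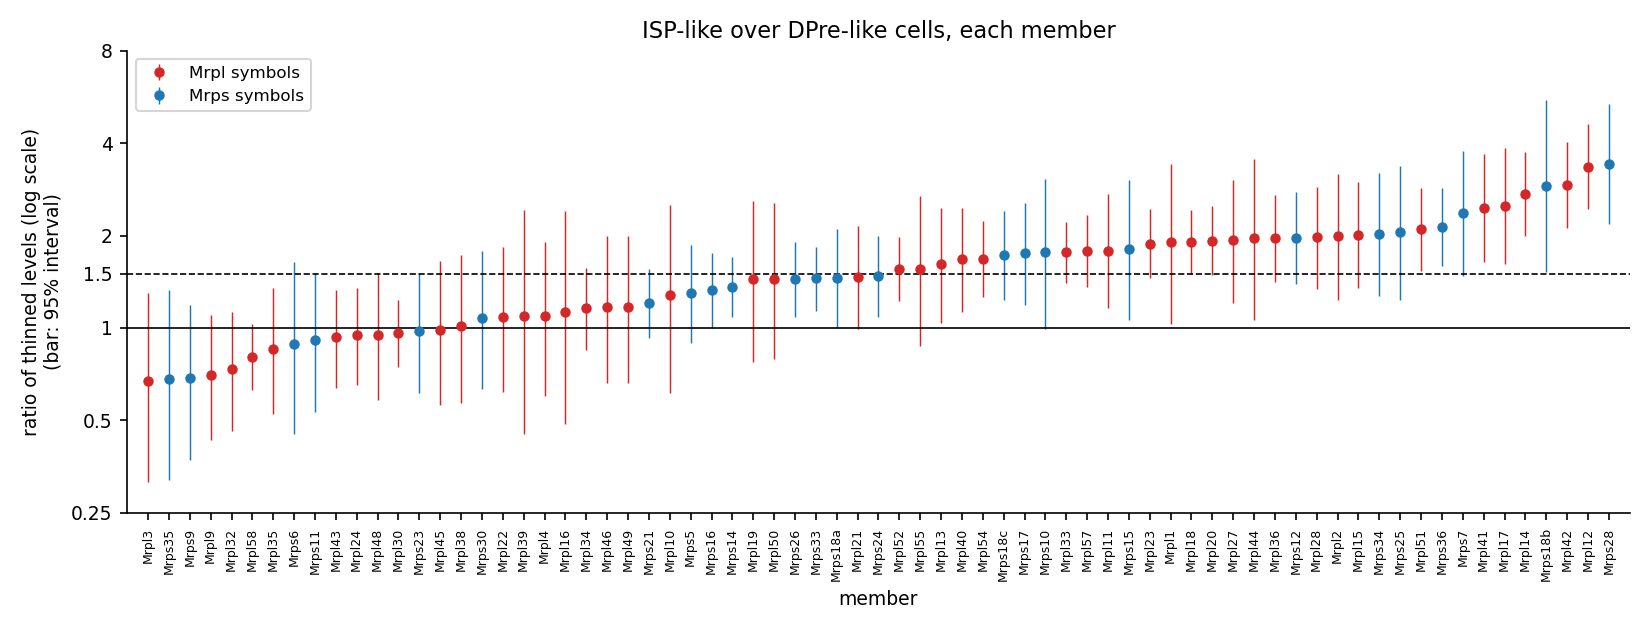
Ratio of the thinned level in ISP-like over DPre-like cells (log axis) for each of 71 members, with exact 95% intervals; the solid line marks 1 and the dashed line 1.5. Red points are Mrpl and blue points Mrps genes, and both kinds are spread over the whole range from 0.669 to 3.42.

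The difference was alike in both subunits. The level of Mrpl genes over that of Mrps genes was 1.81 in ISP-like cells (1.68 to 1.94), 1.80 in DN-like, 1.79 in DPbla-like, 1.77 in DPre-like (1.69 to 1.86), 1.74 in DPsel-like and 1.86 in CD4sp-like cells. It was lowest in CD8sp-like cells, at 1.60 (1.46 to 1.75). The proteins were also split by whether bacterial ribosomes have a counterpart. Large subunit proteins with a bacterial homologue were 1.55-fold higher in ISP-like than in DPre-like cells (1.45 to 1.66), with 15 of 28 genes at least 1.5-fold higher, beside 21.6% of all genes. Those without one were 1.56-fold higher (1.43 to 1.69), with 9 of 19 genes. For the small subunit the ratios were 1.46 (1.34 to 1.60) with 7 of 15 genes, and 1.45 (1.27 to 1.65) with 3 of 7 genes, beside the same share of all genes. The 4 ratios had overlapping intervals. Mrps12, which lines the decoding center, had 0.350 steps in ISP-like and 0.177 in DPre-like cells. Mrps36, whose protein is not part of the ribosome, had 0.509 and 0.238 steps, a ratio of 2.14 (1.60 to 2.86). The 3 Mrps18 paralogs differed in level: Mrps18c had a ratio of 1.73 (1.23 to 2.40), Mrps18a of 1.46 (0.998 to 2.10) and Mrps18b, the lowest of them at 0.044 steps in DPre-like cells, of 2.9.

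ISP-like cells were also set against the stages on either side. Over DN-like cells, the members summed to a 1.42-fold higher level (1.33 to 1.52). With another random thinning the ratio was 1.33, and without thinning 1.34. Of 71 members, 32 were at least 1.5-fold higher (all genes 26.0%) and 1 was lower (all genes 28.1%), with median ratios of 1.39 over the members and 0.957 over all genes. At least 2-fold higher were 15 members (all genes 14.3%). Mrpl20 had 0.613 steps in ISP-like and 0.167 in DN-like cells, a ratio of 3.68 (2.06 to 7.15), and Mrpl12 a ratio of 3.78 (2.01 to 7.86), which were 2.55 and 1.96 without thinning. The other high ratios rested on 1 to 3 steps in the 78 DN-like cells, in Mrps9 (ratio 7.66, 1.19 to 321), Mrps25 (4.63, 1.43 to 23.7) and Mrpl1 (3.19, 0.946 to 16.8), and were 1.79, 1.70 and 2.04 without thinning. Mrps35 was the 1 lower gene (0.585, 0.220 to 1.60, and 1.11 without thinning), followed by Mrps6 (0.670), Mrpl24 (0.693), Mrpl19 (0.718) and Mrpl4 (0.718), whose intervals included 1. Mrps6 overlaps Slc5a3 on the same strand, so its reads may not be its own.

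Over DPbla-like cells, the members were 1.45-fold higher in ISP-like cells (1.39 to 1.51). DPbla-like cells also divide but had a median total of 5219 steps, against 10082 in ISP-like cells. There were 32 of 71 members at least 1.5-fold higher (all genes 18.0%) and 0 lower (all genes 20.3%), 1 of them lower with another thinning. At least 2-fold higher were 17 members (all genes 7.29%). The median ratios were 1.47 over the members and 0.99 over all genes. The highest were Mrps18b (4.37, 1.97 to 10.4), Mrpl1 (2.97, 1.43 to 6.36), Mrpl45, which anchors the ribosome at the inner membrane (2.77, 1.35 to 5.82), Mrpl12 (2.66, 1.92 to 3.71) and Mrpl36 (2.56, 1.75 to 3.76). Mrpl3 (0.715), Mrpl39 (0.780), Mrps9 (0.792), Mrpl22 (0.800) and Mrpl58 (0.801) had the lowest ratios, and the intervals of all 5 included 1. With the unnamed cluster counted as ISP-like, the class it scored nearest by a hair, the ratios fell to 1.36 over DPre-like, 1.28 over DN-like and 1.31 over DPbla-like cells.

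The DN-like, DPbla-like and DPre-like classes differed little in sum. DN-like over DPre-like cells gave 1.06 (0.992 to 1.13), which was 1.13 with another random thinning and 1.12 without thinning. The counts were 8 members higher (all genes 18.9%) and 11 lower (all genes 24.9%). These counts depended on the random thinning, and another draw gave 16 and 13, while without thinning they were 13 and 6. Mrpl23 (2.11, 1.51 to 2.89) and Mrpl33 (1.88, 1.39 to 2.50) were higher in DN-like cells, followed by Mrps18b (2.02), Mrpl19 (2.01) and Mrps7 (1.84), whose intervals included 1. Mrpl20 had 0.167 and 0.319 steps, a ratio of 0.523 (0.273 to 0.921). Mrps9 (0.0896, from 1 step in DN-like cells), Mrps25 (0.444), Mrpl49 (0.489) and Mrpl21 (0.512) were the other low genes, and without thinning they were at 0.459, 1.11, 1.15 and 0.933.

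DPbla-like over DPre-like cells gave 1.03 (0.997 to 1.07), and 7 members were at least 1.5-fold higher (all genes 15.0%) and 8 lower (all genes 27.1%), with 5 lower without thinning or with another random thinning. Single members moved both ways. Mrpl51 had 0.416 steps in the DPbla-like and 0.214 in the DPre-like class, a ratio of 1.95 (1.5 to 2.53). Mrpl42 (1.91, 1.42 to 2.59), Mrpl28 (1.90, 1.39 to 2.61), Mrpl13 (1.68, 1.2 to 2.38) and Mrpl18 (1.62, 1.32 to 1.99) were the next. Mrpl45 (0.354, 0.187 to 0.630), Mrpl24 (0.466, 0.323 to 0.661), Mrpl38 (0.513, 0.292 to 0.868), Mrpl9 (0.577, 0.392 to 0.835) and Mrps30 (0.590, 0.355 to 0.953) were the lowest. None of these 10 intervals included 1, and the ratios without thinning lay on the same side of 1.

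From DPre-like cells onward the sum was nearly level. DPsel-like over DPre-like cells gave 0.962 (0.926 to 0.999), with 4 members at least 1.5-fold higher (all genes 13.6%) and 8 lower (all genes 14.9%), 5 without thinning. Mrpl52 (1.85, 1.54 to 2.23), Mrps28 (2.00, 1.31 to 3.10) and Mrps18b (1.96, 1.09 to 3.58) were higher in DPsel-like cells, followed by Mrps6 (1.52) and Mrpl15 (1.44). Mrpl58 (0.515, 0.411 to 0.642), Mrpl3 (0.535, 0.294 to 0.932) and Mrpl34 (0.631, 0.468 to 0.843) were lower, followed by Mrpl2 (0.636) and Mrps9 (0.648). In cells of 2000 to 4000 total steps the summed ratio was 1.03, on the other side of 1.

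CD4sp-like over DPsel-like cells gave 1.00 (0.957 to 1.05), with 3 members higher (all genes 10.0%) and 6 lower (all genes 15.6%). Without thinning these counts were 0 and 3, and with another random thinning 3 members were lower. Mrps34 (1.73), Mrpl17 (1.71), Mrps35 (1.53), Mrpl36 (1.43) and Mrpl16 (1.35) were the highest, and Mrpl45 (0.418), Mrps28 (0.454), Mrpl50 (0.536), Mrpl35 (0.592) and Mrpl38 (0.642) the lowest. Mrps34 overlaps Nme3 on the same strand, as Mrps24 does Urgcp, and reads of such genes may be mixed. CD8sp-like over DPsel-like cells gave 1.03 (0.981 to 1.09), with 8 members higher (all genes 12.4%) and 3 lower (all genes 17.0%). Without thinning 5 were higher, and with another random thinning 7 were lower. Mrpl28 (1.92, 1.17 to 3.14), Mrpl3 (1.89), Mrpl11 (1.88), Mrps34 (1.86) and Mrps10 (1.74) were the highest, and Mrpl22 (0.404, 0.164 to 0.866), Mrpl39 (0.541), Mrpl57 (0.641), Mrpl16 (0.668) and Mrpl9 (0.692) the lowest.

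The 2 mature lineages had like sums. CD8sp-like over CD4sp-like cells gave 1.03 (0.974 to 1.09), with 7 members higher (all genes 11.0%) and 4 lower (all genes 13.1%), and with another random thinning 7 were lower. Mrpl3 (2.22), Mrpl50 (2.12), Mrpl45 (1.81), Mrpl11 (1.79) and Mrps28 (1.76) were the highest. Mrps35 (0.475), Mrpl16 (0.494), Mrpl22 (0.593), Mrpl57 (0.665) and Mrpl39 (0.674) were the lowest. Of these 10 intervals, only that of Mrpl11 (1.01 to 3.22) did not include 1.

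The genes that work with the mitochondrial ribosome were described next, with the same filter and the same fold. In ISP-like over DPre-like cells 21.6% of all genes were higher and 32.5% lower at that fold, against which the few genes that passed in each list are to be read. Summed ratios cover all genes of a list that were in the table, also those that did not pass. Of 6 ribosomal proteins under other names, 5 were in the table and 4 passed the filter. The 5 were together 1.59-fold higher in ISP-like than in DPre-like cells (1.38 to 1.84). Chchd1, a small subunit protein, had 0.644 and 0.288 steps, a ratio of 2.23, and Gadd45gip1 of the large subunit a ratio of 1.51. Of the translation factors, 4 passed the filter and 1 was at least 1.5-fold higher, Tufm, the elongation factor that delivers tRNA (1.87, 0.995 to 3.41). The list summed to a ratio of 1.13 (0.882 to 1.45). Of the factors that assemble the ribosome or modify its RNA, 5 passed, 0 were higher and 1 was lower, the helicase Dhx30 (0.480), and the list summed to 1.05 (0.872 to 1.26). Only 1 mitochondrial tRNA synthetase passed the filter, and that list summed to 1.10 (0.829 to 1.45). The list of mitochondrial transcription and RNA stability summed to 1.61 (1.31 to 1.98), with 2 genes that passed. Slirp, which keeps mitochondrial mRNAs stable, had 0.429 and 0.198 steps, a ratio of 2.17 (1.58 to 2.98), whereas Tfam, which packs and transcribes mitochondrial DNA, had a ratio of 1.06 (0.642 to 1.69). In DPbla-like over DPre-like cells several of these lists had summed ratios below 1, as most genes did, with a median ratio of 0.872 over all genes and 0.992 over the members. The assembly factors were at 0.591 (0.497 to 0.700), and 4 of 5 were at least 1.5-fold lower (all genes 27.1%), namely Rbfa, Dhx30, Malsu1 and Ngrn. The tRNA synthetases were at 0.684 (0.529 to 0.879), the translation factors at 0.788 (0.633 to 0.977) and the genes of the mitochondrial genome at 0.743 (0.728 to 0.758). The proteins under other names were at 1.00 (0.877 to 1.14) and the transcription and RNA stability list at 1.02 (0.840 to 1.23).

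The genes of the mitochondrial genome, which hold the mRNAs that this ribosome translates, were summed in the same way. They came to 57.7 steps in DN-like, 39.8 in ISP-like, 55.6 in DPre-like and 41.3 in DPbla-like cells. The ratio of ISP-like to DPre-like cells was 0.716 (0.697 to 0.736), and 1 of 12 genes was at least 1.5-fold higher (mt-Nd4l, all genes 21.6%) and 3 lower (all genes 32.5%). mt-Co1, of cytochrome c oxidase, had 5.25 steps in ISP-like and 9.41 in DPre-like cells, whereas mt-Nd1 of complex I had 5.67 and 5.27 steps. Many of these genes are among the highest in a cell, where steps understate the level. ISP-like and DPbla-like cells, with the low sums, were also the deepest named classes. Their median totals were 10082 and 5219 steps, against 3633 in DN-like and 1998.5 in DPre-like cells. How far depth moved the ratios of these genes was not tested.

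Promoter entries were at hand for 68 of the 77 members, and for 21263 promoters of protein-coding genes in all. The ETS motif was in 25 of 74 member promoters (33.8%), against 11.6% of all promoters and 20.5% of the promoters of genes in the scRNA-seq table. The YY1 motif was in 12 (16.2%, against 3.05% and 5.15%), the NRF1 motif in 8 (10.8%, against 3.52% and 5.85%) and the E-box in 7 (9.46%, against 7.84% and 10.5%). The 7 E-box promoters belong to 5 of 68 genes, since 3 overlapping Mrpl2 promoters hold the same site. At least 1 of the 4 motifs was in 55.4% of member promoters, 22.8% of all and 35.9% of those in the table. Of the 29 ETS matches, 26 lay from 100 bases before the start onward, with a median position of -17. YY1 matches had a median position of 16, within the first transcribed bases. In the promoters printed above, Mrpl52 carries ETS matches at -47 and 3, and Mrps11 a YY1 match at -107. Mrps12 carries an ETS match at 2 and a YY1 match at -199. Mrps18b has NRF1 matches at -223 and 29 and an ETS match at 44. Mrpl36 holds an E-box at -43 beside a YY1 match at -30, and Mrpl42 a YY1 match at 28. Positions give the left end of the match and count from 1 at the start, with -1 just before it.

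The members' ratios were also set side by side by motif, as a description. Members with the ETS motif had a median ratio of ISP-like to DPre-like cells of 1.46 (23 genes) and those without it of 1.56 (39 genes). For YY1 the medians were 1.47 (10 genes) and 1.51 (52 genes), and for NRF1 1.18 (8 genes) and 1.52 (54 genes). The 4 members with an E-box that passed the filter (Mrpl2, Mrpl20, Mrpl36 and Mrps18c) had a median of 1.95, against 1.45 for the 58 without it. At least 1.5-fold higher were 4 of 4 members with an E-box and 26 of 58 without, 10 of 23 with the ETS motif and 20 of 39 without, 3 of 8 with NRF1 and 27 of 54 without, and 4 of 10 with YY1 and 26 of 52 without, beside 21.6% of all genes. With 4 genes, the E-box values are no more than a description. Mrpl12, with a ratio of 3.35, had none of the 4 motifs.

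Many members share their promoter region with another gene. For 24 of 68 members (35.3%), a protein-coding gene on the opposite strand starts within 1000 bases upstream, pointing away. This held for 8.48% of all protein-coding genes and for 15.6% of those in the table. The median distance between the starts was 136 bases. Mrpl46 and Mrps11, of the large and the small subunit, start 42 bases apart, so that the Mrps11 promoter above holds both starts. Other partners also act in mitochondria: Mrps12 pairs with Sars2, the mitochondrial seryl-tRNA synthetase (147 bases), Mrpl43 with Twnk, the helicase of mitochondrial DNA (116 bases), Mrpl47 with Ndufb5 of complex I (308 bases) and Mrps27 with Ptcd2 (108 bases). Others do not, such as Mrpl18 with the chaperonin gene Tcp1 (238 bases), Mrpl32 with the proteasome gene Psma2 (205 bases) and Mrpl49 with Fau (192 bases).

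The ATAC table held counts in 138317 peaks, each 4000 bases wide, and was read as GRCm38: 98.0% of genes had a peak center within 2000 bases of a start, and 32.0% did when the starts were shifted by 100000 bases. The labels tie no cell to an animal, and every sort was taken as 1 sample. All 68 members with a known start had a peak there. Over the 182 cells of the DN sort their peaks took 0.931% of all promoter counts (0.899% to 0.963%), and over the 125 cells of the DP sort 0.886% (0.840% to 0.935%). The share was 0.955% (0.910% to 1.00%) for the 119 CD4 cells and 0.860% (0.814% to 0.909%) for the 116 CD8 cells. A read can fall in several overlapping peaks, which makes these intervals too narrow. Peaks that do not overlap one another were found at 58 members, and the shares over these were 1.3% (1.23% to 1.37%), 1.23% (1.13% to 1.34%), 1.27% (1.18% to 1.37%) and 1.23% (1.13% to 1.33%), with overlapping intervals. ISP and DPbla cells were not separated within these sorts, so accessibility was not compared for them.

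**Figure D5:**
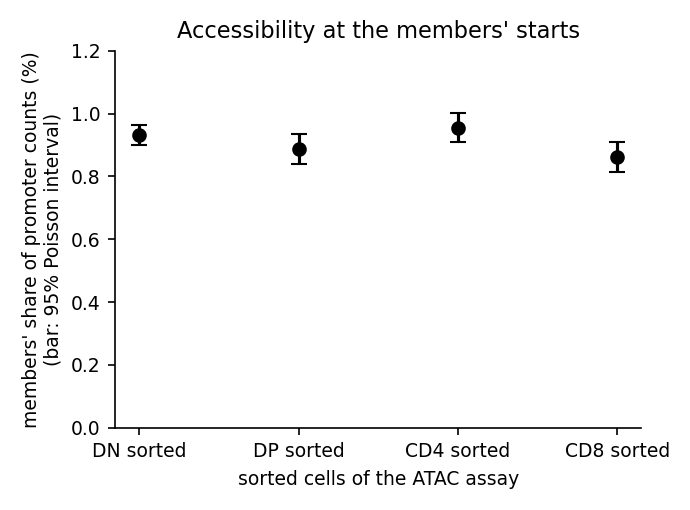
Share of the counts in promoter peaks that fell in peaks at the members' starts, in percent, for 4 sorts of single thymocytes, with 95% Poisson intervals. The shares lie between 0.860% and 0.955%.

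For single members, counts were few, from 20 to 554 over the 4 sorts together. In DP over DN sorted cells, 5 of 68 members were at least 1.5-fold higher (all genes 14.6%) and 13 lower (all genes 18.6%), and the median ratio was 0.997, against 1.01 over all genes. CD4 over DP sorted cells gave 12 higher (all genes 19.1%) and 15 lower (all genes 23.1%), with a median ratio of 0.959 over the members and 0.961 over all genes. CD8 over DP sorted cells gave 7 higher (all genes 16.8%) and 16 lower (all genes 21.3%), with a median ratio of 0.884 over the members and 0.967 over all genes. Mrpl34 had the most counts, with 2.28 per 10000 counts in DN, 1.99 in DP, 1.95 in CD4 and 1.96 in CD8 sorted cells. Mrpl52, whose RNA was higher in DPsel-like than in DPre-like cells, had 0.198, 0.230, 0.287 and 0.404 per 10000 in the same order, from 22, 11, 16 and 20 counts.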

How the data were processed

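The scRNA-seq libraries were made with the 10x GemCode 3′ V2 kit. Per the submitters' notes reads were processed with Cell Ranger 1.3.1 on GRCm38.p5. The authors deposited log2 values, quantile normalized after quality filters. Their methods describe the removal of mitochondrial RNA, but 13 genes of the mitochondrial genome were in the table and kept; no cytosolic ribosomal protein gene was in it. For scATAC-seq the authors deposited counts per peak and cell, and 1446 cells of total thymocytes or of no stated group were not used.

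Values were turned into steps and thinned to 1300 steps per cell (Python 3.11.15, numpy 2.4.6, scipy 1.17.1, pandas 2.3.3). Clusters came from Seurat 5.3.0 (R 4.3.3) on 1306 variable genes, 3 of them members, with 20 components, 30 neighbors and resolution 2. Each cluster was named for the class whose 5 markers had the greatest mean z. Clusters with Mki67 in at least 50% of cells could only be ISP-like or DPbla-like. A cluster whose 2 best scores lay within 0.05 stayed unnamed, a rule set after clusters and member levels were seen. Doublets were not called; leaving out the 5% of cells with the most genes in each cluster was an alternative. Leaving out ribosomal and mitochondrial genes, another one, in effect left out the latter only. Sums carry exact Poisson and ratios exact conditional binomial intervals; the scripts were tested on simulated data. Named are the 10 highest members, the 5 highest and 5 lowest ratios per comparison, the Mrps18 genes and listed genes past 1.5-fold, with a few chosen after their values were seen. The members and lists were chosen with earlier results of these data known.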

Additional observations from a re-analysis of the deposited data

How the results depend on the processing

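Across 106 recomputed ratios of summed levels, 86 stayed within the interval of the reported value and the others left it. Some of the 86 could not change, since a change of cluster names left both of their classes as they were. Of the reported ratios whose interval excluded 1, only DPsel-like over DPre-like cells crossed 1, under 1 alternative. The ratios of DPbla-like over DPre-like (0.957 to 1.22 over the alternatives) and CD4sp-like over DPsel-like cells (0.950 to 1.04), whose intervals included 1, had values on both sides of 1. ISP-like cells were higher than the compared class in every one, from 1.26 to 1.74 over DPre-like, 1.2 to 1.5 over DN-like and 1.17 to 1.54 over DPbla-like cells. On the deposited log2 values, as a mean over the members, these ratios were 1.26, 1.2 and 1.17. As the share of detected genes they were 1.41 over DPre-like and 1.34 over DPbla-like cells. With cluster resolution 1 they were 1.36, 1.29 and 1.3, and no cluster was CD8sp-like, so that its comparisons gave no value. With the unnamed cluster counted as ISP-like they were 1.36, 1.28 and 1.31. With steps above 5 set to 5, ISP-like over DPre-like cells gave 1.74, DN-like over DPre-like cells 1.16 and DPbla-like over DPre-like cells 1.22. In cells of 2000 to 4000 steps, ISP-like over DPbla-like cells gave 1.54, DPbla-like over DPre-like cells 0.957 and DPsel-like over DPre-like cells 1.03 in place of 0.962. Without thinning, DPbla-like over DPre-like cells gave 1.08. Another random thinning gave 1.13 for DN-like over DPre-like cells. Counting the CD4sp-like cluster with a near DPsel score as DPsel-like gave 0.950 for CD4sp-like over DPsel-like cells. The causes were not tested. The capped steps and both changes of cluster names were chosen after seeing the data, as was the count of peaks per cell, which stayed within the intervals. With non-overlapping peaks the shares of promoter counts were 1.3% in DN, 1.23% in DP, 1.27% in CD4 and 1.23% in CD8 sorted cells.

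At a fold of 2, the counts of higher members fell to 13, 15 and 17 over DPre-like, DN-like and DPbla-like cells (all genes 13.1%, 14.3% and 7.29%), from 35, 32 and 32, and to 3 or fewer in the other comparisons; those of lower members were 0 to 3 throughout. With another thinning, 16 members in place of 8 were higher in DN-like than in DPre-like cells, 13 without thinning. Counts of lower members moved by over 1.5 times with another thinning to 4 (from 0) for ISP-like over DPre-like, 2 (from 1) over DN-like, 1 (from 0) over DPbla-like, 5 (from 8) for DPbla-like over DPre-like, 3 (from 6) for CD4sp-like over DPsel-like, 7 (from 3) for CD8sp-like over DPsel-like and 7 (from 4) for CD8sp-like over CD4sp-like cells. Without thinning, higher members were 0 (from 3) for CD4sp-like and 5 (from 8) for CD8sp-like over DPsel-like cells. Lower members were then 1 for ISP-like over DPre-like, 6 (from 11) for DN-like, 5 (from 8) for DPbla-like and 5 (from 8) for DPsel-like over DPre-like, and 3 (from 6) for CD4sp-like over DPsel-like cells. With no filter, 1 and 2 members were lower in ISP-like than in DPre-like and DN-like cells. Depth limits single members, most of which had under 1 step in 4 thinned cells. No paired analysis was possible because the library has no replicate.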
